A study of Zea mays with 48 samples.

Results

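The genes described here are B73-type targets of ZmCCA1 that were found again in a hybrid: genes with a ZmCCA1 peak assigned to them in the inbred line B73 and in at least one of the reciprocal F1 hybrids BM and MB, but in no peak of the other parent, the inbred line Mo17. They numbered 690 of the 4321 genes with a peak in any of the 4 genotypes, and they held 1801 of the 10136 peaks, of which 612 were in BM, 373 in MB and 816 in B73. BM is the cross B73 x Mo17 and MB the cross Mo17 x B73, with the female parent written first. Aerial tissues of seedlings were taken 5 days after planting at ZT3, ZT9 and ZT15, where ZT is the time in hours from dawn, under 16 h of light and 8 h of dark. ZmCCA1 was precipitated with polyclonal antibodies against its MYB domain. The labels name ZmCCA1b, and per the study's text a full-length ZmCCA1a can be bound too, so the pair of proteins cannot be told apart in these peaks. The study sequenced 2 biological replicates per genotype and time point, 24 ChIP and 24 input libraries in all.

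CCA1 is a MYB-type transcription factor at the core of the plant circadian clock. In Arabidopsis it accumulates around dawn and represses genes of the evening, such as TOC1, through short A/T-rich elements in their promoters. Maize has a pair of CCA1 homologs, and the study asked whether the timing and the range of ZmCCA1 targets differ between inbred lines and vigorous hybrids. A hybrid carries a B73 and a Mo17 copy of each locus, so a B73-type target has a copy of the genome in which it was bound in B73 beside a copy from a parent without a called peak.

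Each genotype had a single list of peaks, with the authors' log2(ChIP/Input) of each peak at the 3 time points. A value of 1 on this scale is a ChIP signal at double that of input. Each value stands for the pooled replicates, so values come without an error, the read depth behind a peak is unknown, and a comparison of 2 hybrid lists with 1 inbred list could not go below an exact permutation p of 0.333. All differences below are therefore descriptions of lists. Intervals are 95% intervals over genes, Wilson for shares and order-statistic (exact binomial) for medians, and they cover the sampling of genes and not the spread between plants. The lists also differed as a whole. Over all peaks, the median log2(ChIP/Input) of BM minus that of B73 was 0.32 at ZT3, -0.12 at ZT9 and -0.51 at ZT15. That of MB minus that of B73 was 0.04, -0.11 and -0.38 at the same times. The cause of these shifts was not tested.

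A smaller share of B73-type targets than of targets shared with Mo17 was found again in the hybrids. Of the 1673 B73 targets that Mo17 lacked, 690 (41.2%, 38.9% to 43.6%) had a peak in a hybrid, against 686 of the 848 B73 targets (80.9%, 78.1% to 83.4%) that also had a Mo17 peak. The BM list held 528 of the 1673 genes (31.6%, 29.4% to 33.8%) and the MB list 338 (20.2%, 18.3% to 22.2%). Among all 2521 B73 targets, 44.5% were in the BM list and 33.6% in the MB list. Targets of the other inbred showed a lower share: of 674 Mo17 targets that B73 lacked, 233 were found in a hybrid (34.6%, 31.1% to 38.2%). By the rule itself, 352 of the 690 genes were kept in BM only (51.0%), 162 in MB only (23.5%) and 176 in both hybrids (25.5%). Those 176 genes made up 33.3% of the kept genes of BM and 52.1% of those of MB. The lists were unequal in length, with 2796 peaks in BM, 1874 in MB and 3364 in B73, and this difference runs the same way as the kept shares. The part of list length in them was not tested.

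The share kept was higher among B73 targets with a higher signal and among longer genes. When the 1673 genes were sorted by their highest B73 log2(ChIP/Input) and divided into 5 equal bins, the share found in BM was 21.8% (17.7% to 26.5%) in the lowest bin and 38.9% (33.9% to 44.3%) in the highest. In MB the lowest bin had 13.4% (10.2% to 17.5%), and the 4 bins above it lay between 20.3% and 24.8% with overlapping intervals. Gene length, measured between the gene ends that the authors list, gave a wider range. In BM the share was 17.6% (13.9% to 22.1%) in the bin of the shortest genes and 45.5% (40.2% to 50.9%) in the bin of the longest. In MB these bins had 11.9% (8.9% to 15.9%) and 24.6% (20.2% to 29.4%). Genes with 2 or more B73 peaks were kept in BM at 57.4% and in MB at 37.0%, against 28.8% and 18.4% of genes with 1 B73 peak. Level, length and number of peaks are linked, and their separate parts were not tested. The time of the highest B73 signal went with almost no difference: 31.5%, 31.8% and 31.2% of genes with their B73 maximum at ZT3, ZT9 and ZT15 were found in BM, and 18.6%, 20.7% and 21.4% in MB.

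**Figure D1:**
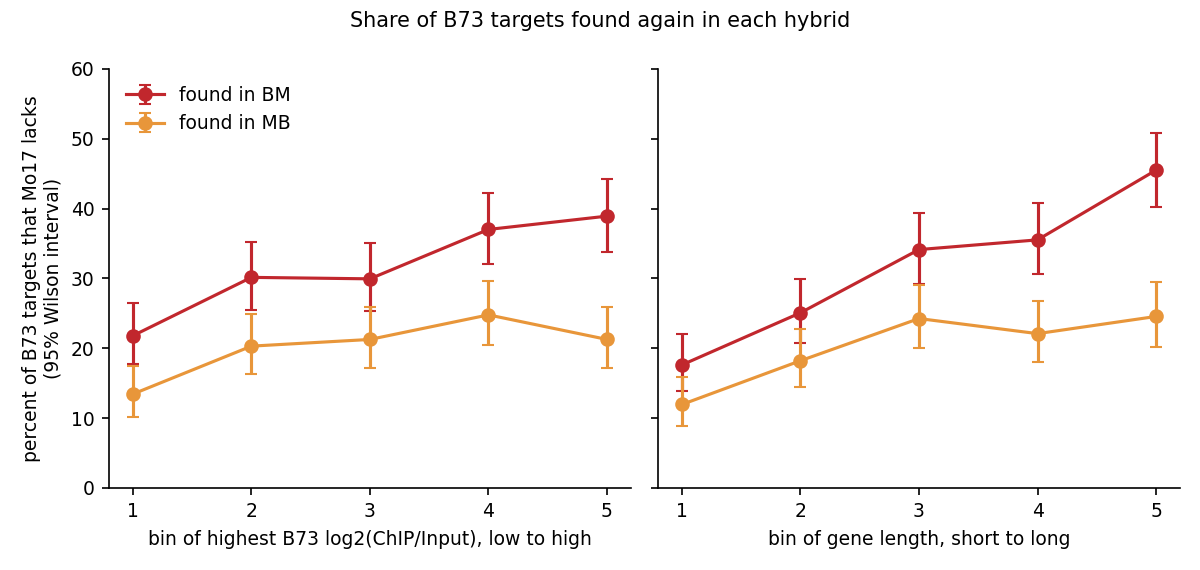
Share of the 1673 B73 targets without a Mo17 peak that were found in BM (red) and in MB (orange), in 5 equal bins of the highest B73 log2(ChIP/Input) (left) and of gene length (right), with 95% Wilson intervals. The share in BM was lowest in the first bin of both, at 21.8% and 17.6%, and highest in the last, at 38.9% and 45.5%, while in MB the upper 4 bins of B73 level lay close together.

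The kept genes were spread over the genome. The share of B73-type targets found in a hybrid ran between 31.0% on chromosome 10 (35 of 113 genes) and 45.9% on chromosome 1 (119 of 259), and the Wilson intervals of these 2 chromosomes, 23.2% to 40.0% and 40.0% to 52.0%, overlapped by less than 0.1 percentage points. Kept genes had a median length of 6414.5 bp, against 5190 bp for the 983 genes found in B73 alone. Genes kept in both hybrids were longer, with a median of 7748.5 bp, than those kept in BM only (6573.5 bp) or MB only (5751 bp). A second B73 peak was present at 23.3% of genes kept in both, at 14.8% of those kept in BM only and at 11.7% of those kept in MB only, against 5.09% of the genes found in B73 alone.

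ZmCCA1 peaks at these genes lay mostly inside the gene and not in the promoter. No peak with an assigned gene in BM, MB or B73, kept or not, covered the gene end alone or lay downstream of the gene. The shares are thus over peaks at other places, and how the assignment treated peaks there is not known here. In BM 89.7% of the kept genes' peaks fell between the gene ends without touching either (87.0% to 91.9%), in MB 91.4% (88.1% to 93.9%) and in B73 88.8% (86.5% to 90.8%). The same share was 81.9% in BM, 79.1% in MB and 82.4% in B73 over all peaks with a gene, and 71.6%, 67.1% and 75.2% for peaks of targets that Mo17 shared. A place in the 2 kb before the gene start was held by 1.5% of the kept genes' peaks in BM, 2.7% in MB and 2.3% in B73, against 3.9%, 4.0% and 4.2% of all peaks with a gene and 6.0%, 5.5% and 5.4% at genes that Mo17 shared. The centre of a kept peak was a median of 2132 bp downstream of the gene start in BM, 2202 bp in MB and 2146 bp in B73. Kept peaks had a median width of 1099 bp in BM, 950 bp in MB and 1123 bp in B73. No sequence is shown for these regions, because no genome of the files' build, B73 AGPv2, was used here.

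In B73 itself, the classes differed little in level. The highest log2(ChIP/Input) of a gene over the 3 time points had a B73 median of 1.99 (1.94 to 2.05) for genes kept in BM only, 1.95 (1.88 to 2.01) for genes kept in MB only and 2.03 (1.96 to 2.08) for genes kept in both. These intervals overlap. Genes found in B73 alone had 1.91 (1.88 to 1.93), and targets of all 4 lists had 2.15 (2.11 to 2.20). The genes kept in both had the flattest B73 profile of the 3 classes, with a median of 0.83 (0.75 to 0.91) between the highest and the lowest time point, against 0.97 (0.91 to 1.01) for BM only and 1.0 (0.93 to 1.09) for MB only. Targets of all 4 lists had 0.63 (0.58 to 0.67) and genes found in B73 alone 1.19 (1.14 to 1.23). The range was smaller where more genes had 2 or more B73 peaks, as 34.9% of the targets of all 4 lists did. Each value is the highest over a gene's peaks, and the part of peak number was not tested.

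Across the day, the kept genes had their highest hybrid signal in the morning in BM and their lowest at ZT15 in both hybrids. At ZT3 the median log2(ChIP/Input) was 1.85 in BM (quartiles 1.45 and 2.15) and 1.52 in MB (1.0 and 1.88), against 1.49 in B73 (1.11 and 1.88). At ZT9 the medians were close together, at 1.59 in BM, 1.49 in MB and 1.64 in B73. At ZT15 they were 0.80 in BM and 0.95 in MB, against 1.42 in B73. The range of a gene over the day, its highest minus its lowest time point, had a median of 1.30 (1.25 to 1.35) in BM and 1.17 (1.10 to 1.27) in MB, against 0.94 (0.90 to 0.98) in B73. Over all targets of each list the same range was 1.27 in BM, 1.18 in MB and 0.97 in B73.

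**Figure D2:**
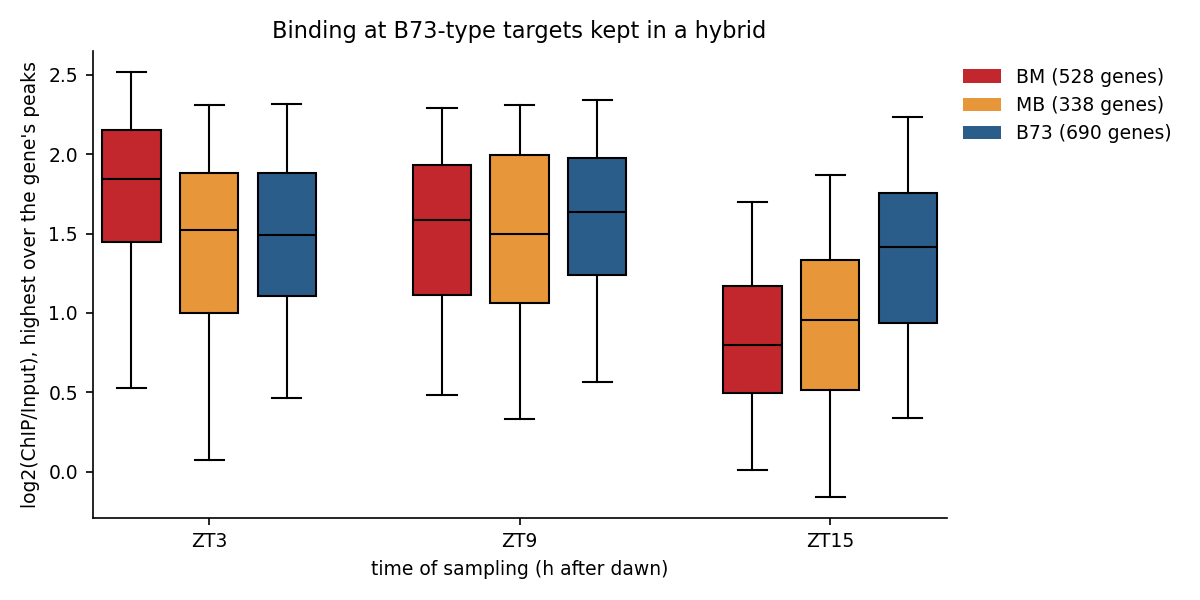
log2(ChIP/Input) of the kept genes at each time point in BM (528 genes), MB (338 genes) and B73 (690 genes), with the highest value over a gene's peaks. Boxes give the median and quartiles over genes and whiskers the 5% and 95% points. The medians at ZT15 are 0.80 in BM and 0.95 in MB, below the 1.42 of B73, and at ZT3 BM lies highest at 1.85.

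To compare the same stretch of DNA, the difference was taken at peaks of a gene that overlapped between the hybrid and B73 by at least 1 bp, which 385 of the 528 genes had for BM and 242 of the 338 for MB. The median of BM minus B73 was 0.29 (0.19 to 0.36) in the morning at ZT3, -0.10 (-0.19 to -0.02) at ZT9 and -0.53 (-0.61 to -0.48) at ZT15. MB minus B73 had medians of 0.07 (-0.06 to 0.21), -0.04 (-0.13 to 0.08) and -0.48 (-0.57 to -0.34). Both sets of values follow the shifts between whole lists given above. Genes that Mo17 shared had 0.15, -0.13 and -0.54 for BM minus B73 (524 genes) and 0.09, -0.18 and -0.42 for MB minus B73 (422 genes). Both comparisons use the one B73 list. Once each list was centred on its own median at each time point, the medians of the kept genes became -0.03 (-0.13 to 0.05), 0.02 (-0.07 to 0.10) and -0.03 (-0.10 to 0.03) for BM minus B73. For MB minus B73 they became 0.03 (-0.10 to 0.17), 0.07 (-0.01 to 0.19) and -0.10 (-0.19 to 0.04), so all 6 intervals then included 0. Those of targets that Mo17 shared did not all include 0. Their centred medians were -0.17 (-0.19 to -0.12), -0.01 (-0.05 to 0.02) and -0.03 (-0.10 to 0.03) for BM minus B73. For MB minus B73 they were 0.06 (0.01 to 0.10), -0.07 (-0.15 to -0.01) and -0.04 (-0.10 to 0.05).

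**Figure D3:**
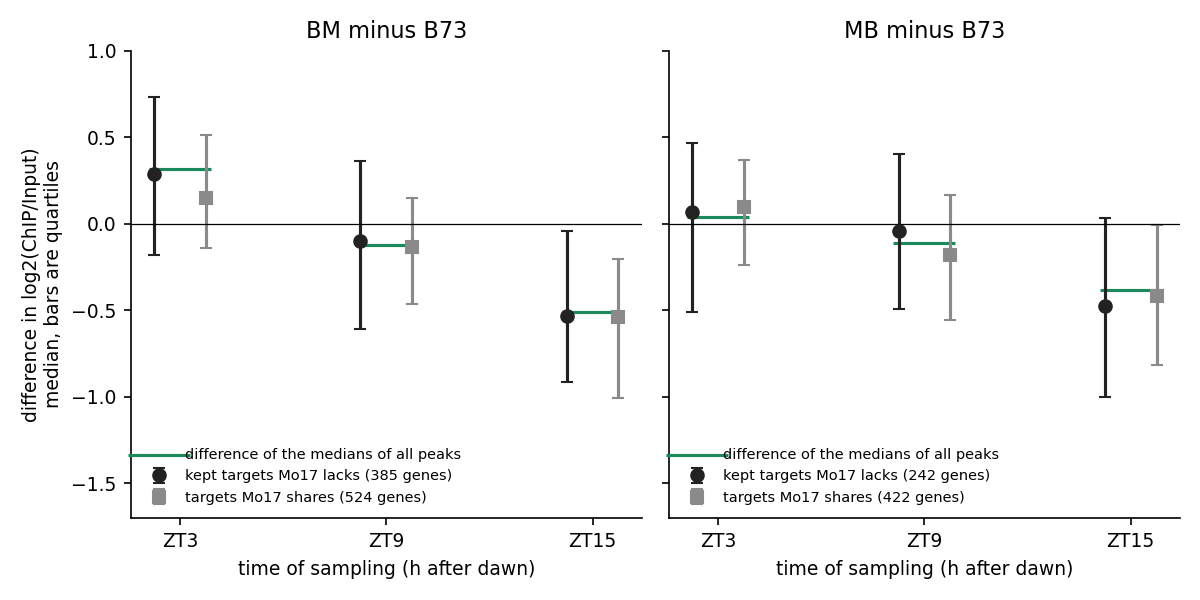
Difference in log2(ChIP/Input) between BM and B73 (left) and between MB and B73 (right) at overlapping peaks, as the median with quartile bars over kept genes that Mo17 lacks (circles) and over targets that Mo17 shares (squares). The green lines are the differences between the medians of all peaks of the lists, and at ZT15 the kept genes lie at -0.53 in BM and -0.48 in MB beside lines at -0.51 and -0.38.

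Counted gene by gene, 140 of the 385 kept genes were higher in BM than in B73 by 0.5 or more at ZT3 and 58 lower, where 30.0% and 11.8% of all 909 genes with overlapping peaks passed these limits. At ZT9 68 were higher (13.8% of all genes) and 113 lower (25.6%), and at ZT15 29 were higher (5.28%) and 209 lower (53.8%). In MB at ZT3, 53 of 242 kept genes were higher and 61 lower, beside 19.6% and 18.7% of all 664 genes. At ZT9 48 were higher (13.9%) and 60 lower (26.4%), and at ZT15 26 were higher (8.58%) and 118 lower (45.9%). In BM the excess in one direction was smaller once the lists were centred. After centring, BM had 82 higher and 93 lower at ZT3 (17.7% and 23.1% of all genes), 92 and 93 at ZT9 (18.5% and 20.9%), and 94 and 81 at ZT15 (20.1% and 23.2%). MB then had 50 and 64 at ZT3 (17.3% and 19.6%), 63 and 44 at ZT9 (18.7% and 21.1%), and 51 and 77 at ZT15 (18.4% and 26.4%). After centring, the kept genes of MB thus leaned to higher at ZT9, where all genes leaned to lower. As deposited, they had leaned to lower at ZT9. At ZT15 they leaned to lower on both scales, and so did all genes. Of the genes past 0.5 at ZT15 after centring, 39.8% of the kept genes and 41.1% of all genes were higher. The cause was not tested.

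Gene by gene, the levels in a hybrid followed those in B73 weakly at the kept genes. Across the 385 genes with overlapping peaks in BM and B73, Pearson's r was 0.20 at ZT3, 0.17 at ZT9 and 0.07 at ZT15. Across the 242 genes for MB and B73 it was 0.20, 0.27 and 0.04. Targets that Mo17 shared gave 0.47, 0.46 and 0.52 for BM and 0.64, 0.44 and 0.60 for MB. Spearman's rho was 0.17, 0.12 and 0.09 for BM and 0.18, 0.28 and 0.03 for MB at the kept genes, and between 0.26 and 0.54 at the shared targets. These are correlations across genes, which are not replicates, and the shared targets reach higher levels, up to 6.87 in BM at targets of all lists against 2.93 at kept genes.

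The phase of a gene, its time point of highest signal, was at ZT3 for 324 of 528 kept genes in BM (61.4%, 57.1% to 65.4%) and for 142 of 338 in MB (42.0%, 36.9% to 47.3%), against 221 of 690 in B73 (32.0%, 28.7% to 35.6%). Over the full lists, this phase was that of 64.2% of BM targets, 51.0% of MB targets and 34.3% of B73 targets. In MB 158 kept genes (46.7%) had their phase at ZT9, where all MB targets had 37.0%. In BM 184 kept genes (34.8%) and in B73 295 (42.8%) had their phase at ZT9, beside 31.3% and 40.3% of all targets. ZT15 was the phase of 20 kept genes in BM (3.79%) and 38 in MB (11.2%), against 174 in B73 (25.2%), beside 4.51%, 12.1% and 25.4% of all targets.

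The shares depend on the scale of each list. With every list centred on its medians, ZT3 was the phase of 36.6% of the kept genes in BM and of 32.5% in MB, against 31.6% in B73. All targets then had 35.6%, 35.8% and 33.0%. At ZT9 the centred shares of kept genes were 37.7% in BM and 41.7% (36.6% to 47.0%) in MB, against 35.8% in B73, beside 33.7%, 33.1% and 33.6% of all targets. At ZT15 they were 25.8% in BM and 25.7% in MB, against 32.6% in B73, beside 30.7%, 31.0% and 33.3% of all targets.

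**Figure D4:**
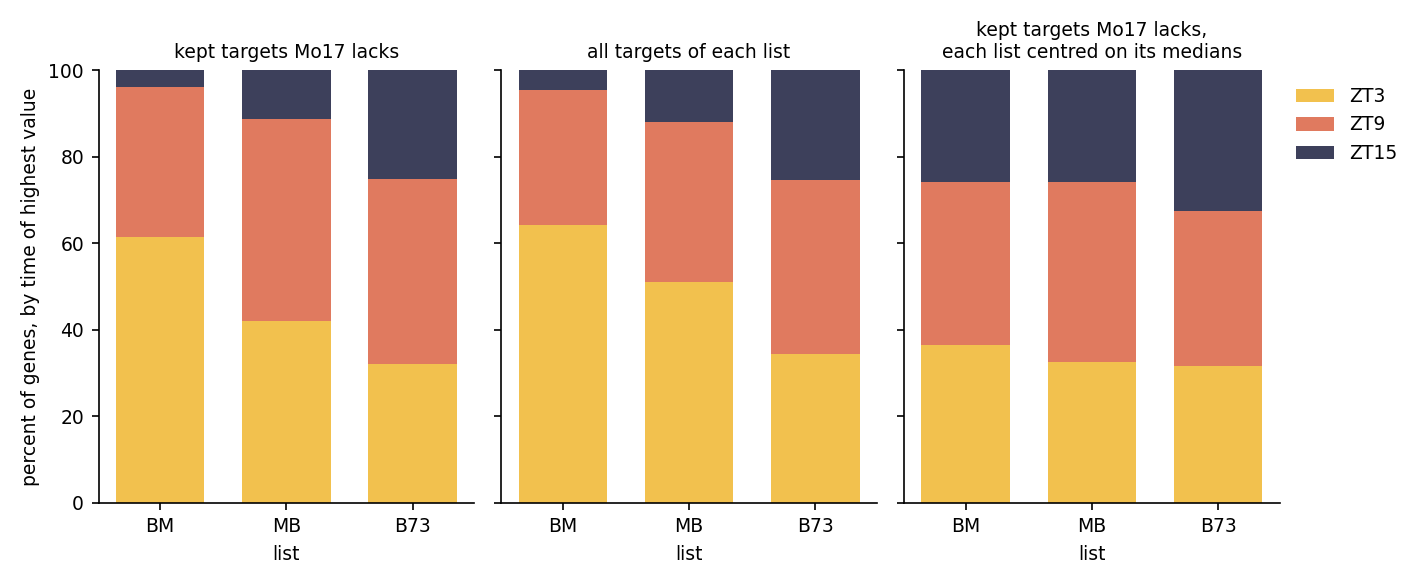
Percent of genes with their highest log2(ChIP/Input) at ZT3, ZT9 or ZT15 in BM, MB and B73, for the kept genes (left), for all targets of each list (middle) and for the kept genes after each list was centred on its own medians (right). ZT3 takes 61.4% in BM, 42.0% in MB and 32.0% in B73 as deposited, and 36.6%, 32.5% and 31.6% after centring.

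A kept gene often peaked at another time in the hybrid than in B73. At overlapping peaks, 150 of 385 genes (39.0%) had the same phase in BM as in B73 and 98 of 242 (40.5%) in MB, and 38.5% and 39.3% of targets that Mo17 shared did. In BM the B73 phase made little difference to the outcome: 67.5% of the 123 genes with a B73 phase at ZT3, 58.8% of the 170 with ZT9 and 68.5% of the 92 with ZT15 had ZT3 as their phase in BM. In MB, 53 of the 98 genes with a B73 phase at ZT9 also had it at ZT9 (54.1%), whereas 8 of the 69 genes with a B73 phase at ZT15 had it at ZT15 (11.6%).

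Among the 176 genes kept in both hybrids, BM and MB differed in the morning in the deposited values, in the direction of the lists as a whole. ZT3 was the phase of 125 of them in BM (71.0%, 63.9% to 77.2%) and of 71 in MB (40.3%, 33.4% to 47.7%), against 59 in B73 (33.5%), beside 64.2%, 51.0% and 34.3% of all targets. With the lists centred, these shares became 42.0% (35.0% to 49.4%) in BM and 31.2% (24.9% to 38.4%) in MB, with overlapping intervals, beside 35.6% and 35.8% of all targets. At the 114 genes with peaks that overlapped between BM and MB, BM minus MB had a median of 0.33 (0.23 to 0.52) at ZT3, where the medians of the whole lists differed by 0.28. There, 49 genes were higher by 0.5 or more and 11 lower, beside 27.9% and 9.42% of all 584 genes with overlapping BM and MB peaks. After centring, the median was 0.05 (-0.05 to 0.24), and 30 genes were higher and 17 lower, beside 16.8% and 18.0% of all. At ZT9 the median as deposited was -0.08 (-0.26 to 0.11), with 25 genes higher and 34 lower, beside 18.8% and 17.5% of all. At ZT15 it was -0.07 (-0.24 to 0.11), with 28 higher and 33 lower, beside 15.2% and 25.7% of all. Genes kept in BM only had their BM phase at ZT3 in 56.5% of cases (51.3% to 61.6%), and genes kept in MB only their MB phase at ZT3 in 43.8% (36.4% to 51.5%).

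For a part of the kept genes the hybrid and B73 had peaks at the same gene but at different places. In BM 143 of 528 genes (27.1%) and in MB 96 of 338 (28.4%) had no overlap between hybrid and B73 peaks, against 71 of 595 (11.9%) and 87 of 509 (17.1%) for targets that Mo17 shared. Over all B73 targets in the hybrid list, 214 of 1123 genes in BM and 183 of 847 in MB had no overlap. The nearest peaks of the kept genes without overlap lay a median of 1396 bp apart for BM and 942.5 bp for MB. These genes were longer, with a median of 9046 bp against 6204 bp for genes with overlapping peaks in BM, and 7556.5 bp against 6086.5 bp in MB. Counting a gene as kept only where the peaks overlapped left 96 genes kept in both hybrids in place of 176.

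Of the 176 genes kept in both, those 96 had a B73 peak overlapped in each hybrid, and the 4 with the highest and the 4 with the lowest mean of BM minus B73 and MB minus B73 at ZT3 are described. The B73 peak need not be the same one for BM and MB, and at GRMZM2G165969 it was not. At the genes described here it was the same. They were chosen on these values, and their levels are given at the overlapping peaks. The gene with the highest mean was cesa5 (GRMZM2G111642, chromosome 1, 290593939 to 290599907), a cellulose synthase, which makes the main polymer of the cell wall. In the order of the time points, its log2(ChIP/Input) had the values 2.44, 0.10 and 0.68 in BM and 2.19, 1.67 and -0.02 in MB, against 0.73, 0.96 and 1.63 in B73. The hybrids were thus highest at ZT3 and B73 at ZT15, and the peaks lay inside the gene, centred 1850.5 bp (BM), 1692.5 bp (MB) and 1727.5 bp (B73) downstream of its start. GRMZM2G033634 (chromosome 7, 146486589 to 146490051) had 1.93, 1.58 and 0.82 in BM and 2.09, 0.16 and -0.32 in MB, against 0.73, 2.19 and 0.73 in B73. GRMZM2G118098 (chromosome 5, 130495184 to 130501387) had 2.03, 1.51 and 0.34 in BM and 2.97, 2.11 and -0.29 in MB, against 1.25, 2.45 and 1.46 in B73. Both had their phase at ZT3 in the hybrids and at ZT9 in B73. GRMZM2G148118 (chromosome 4, 225259158 to 225269632) had 2.29, 1.32 and 0.67 in BM, where a second peak without a B73 counterpart reached 2.67 at ZT3, and 1.38, 2.36 and 0.65 in MB, against 0.72, 2.31 and 1.08 in B73, so that MB kept the B73 phase at ZT9.

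At the other end, 3 of the 4 genes had a lower ZT3 signal in MB than in BM, and the other had similar values in both hybrids. DML3 (GRMZM5G828460, chromosome 5, 162236963 to 162242599), a DEMETER-like DNA glycosylase of the family that removes methylated cytosine, had 1.76, 0.72 and 0.65 in BM and 0.08, 2.39 and 0.93 in MB, against 2.49, 1.83 and 0.44 in B73. Its peaks lay upstream of the gene, centred at -1123 bp (BM), -1016 bp (MB) and -863.5 bp (B73) from its start. PIS (GRMZM2G110646, chromosome 9, 110705986 to 110711388), a phosphatidylinositol synthase of membrane lipid metabolism, had 2.00, 1.49 and 0.42 in BM and 0.59, 2.18 and 1.30 in MB, against 2.02, 1.75 and 1.17 in B73. For DML3 and PIS, BM kept the B73 phase at ZT3 and MB had ZT9. GRMZM2G015875 (chromosome 4, 161070624 to 161077204) had 2.25, 2.12 and 0.33 in BM and 0.67, 1.77 and 0.96 in MB, against 2.29, 0.69 and 1.87 in B73. Outside the overlap, a second MB peak of this gene had 1.92 and a second B73 peak 2.33 at ZT15. GRMZM2G011636 (chromosome 3, 1672506 to 1677401) had 1.03, 0.94 and 0.97 in BM, the flattest of these profiles, and 1.16, 2.31 and 0.61 in MB, against 2.19, 1.72 and 0.50 in B73. The 3 genes with the largest and the 3 with the lowest change in ZT3 minus the mean of the later time points were all among these 8, with mean differences between hybrids and B73 of 2.28 at GRMZM2G118098, 2.27 at cesa5 and 2.18 at GRMZM2G033634, and of -1.61 at DML3, -1.20 at GRMZM2G011636 and -0.85 at GRMZM2G015875.

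**Figure D5:**
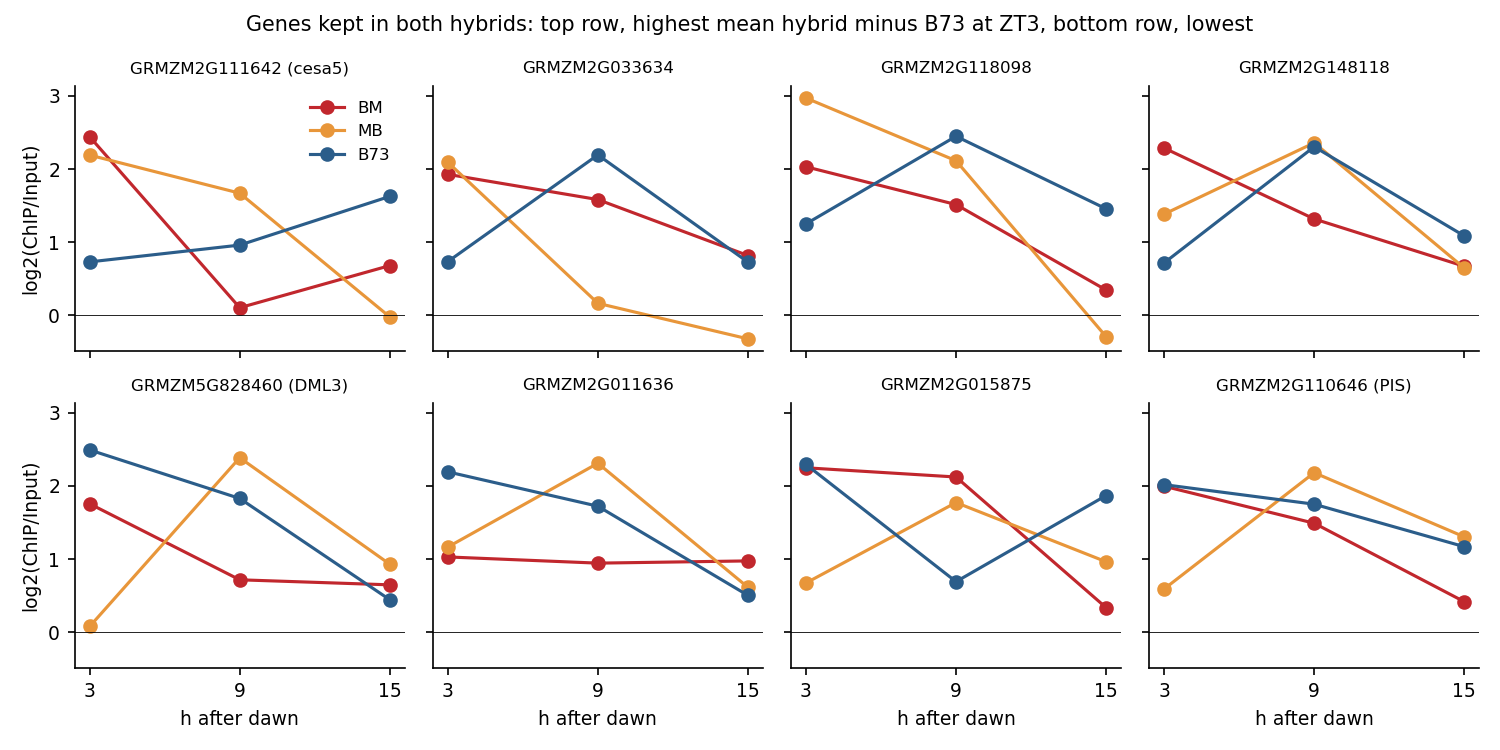
log2(ChIP/Input) at 3, 9 and 15 h after dawn in BM, MB and B73 for the 4 genes with the highest (top row) and the 4 with the lowest (bottom row) mean hybrid minus B73 difference at ZT3, among 96 genes kept in both hybrids with a B73 peak overlapped in each, not always the same peak. Each point is the value at the overlapping peaks, with no replicate error. At cesa5 both hybrids start above 2.1 and B73 at 0.73, and at DML3 MB starts at 0.08 and B73 at 2.49.

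The genes with the highest B73 signal in each class had lower maxima in the hybrids. They were chosen on their B73 values, so the lower hybrid maxima are not a result about the kept genes. Over all kept genes, the median of the highest value was 2.02 in BM and 1.91 in MB, against 1.99 in B73. The levels given here are the highest over all peaks of a gene. In BM only, GRMZM2G106917 (chromosome 8, 124799105 to 124810762) reached 1.81 in BM at ZT3, against 2.94 in B73 at ZT9, at peaks that did not overlap. GRMZM2G124911 reached 2.23 in BM and 2.80 in B73, both at ZT3. GRMZM2G391413 reached 2.06 in BM and 2.75 in B73, both at ZT9, while GRMZM2G113325 reached 1.98 in BM at ZT9, against 2.75 in B73 at ZT15, and neither gene had overlapping peaks. In MB only, GRMZM2G114312 (chromosome 9, 122867393 to 122871672) had -0.26 in MB at ZT3, against 2.80 in B73, the largest drop among the genes named here, at overlapping peaks inside the gene. GRMZM2G017351 had its maximum at ZT3 in MB and at ZT15 in B73, with 2.32, 0.68 and 0.54 in MB over the 3 time points, against 0.20, 1.11 and 2.77 in B73. GRMZM2G168096 reached 2.44 in MB at ZT3, against 2.72 in B73 at ZT9, and GRMZM2G009715 reached 1.75 in MB at ZT3, against 2.65 in B73 at ZT15, at peaks 282 bp apart. Among genes kept in both, GRMZM2G042615 (chromosome 1, 53340165 to 53346116) had the same difference in time in both hybrids, with 1.92, 1.04 and 0.81 in BM and 1.95, 1.11 and 1.17 in MB, against 1.44, 2.00 and 2.69 in B73. GRMZM2G165969 had its phase at ZT3 in all 3 lists, with 2.17 in BM and 1.45 in MB, against 2.72 in B73, and so did GRMZM2G448104, with 2.11 in BM and 1.79 in MB, against 2.67 in B73. For both, B73 held 3 peaks: the one that BM overlapped at GRMZM2G165969 had its phase at ZT9, and the one that both hybrids overlapped at GRMZM2G448104 had 2.06 at ZT3. GRMZM2G101938 reached 1.67 in BM at ZT9 and 2.16 in MB at ZT3, against 2.68 in B73 at ZT3, at peaks that did not overlap.

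The genes with the most peaks were kept in both hybrids and were long. GRMZM2G002002 (chromosome 1, 20282072 to 20292395) held 3 peaks in BM, 2 in MB and 2 in B73, all inside the gene. Its phase was at ZT3 in BM (2.30) and MB (2.29) and at ZT9 in B73 (2.12). GRMZM2G049141 (chromosome 2, 83539268 to 83558706) held 1 peak in BM, 2 in MB and 3 in B73, and its phase was at ZT3 in BM (2.37) and MB (1.91), against ZT15 in B73 (2.44). GRMZM2G082271 (chromosome 10, 18124892 to 18142878) held 2 peaks in BM, 3 in MB and 1 in B73, with its phase at ZT3 in BM (2.19) and at ZT9 in MB (2.07) and B73 (1.80). These levels join several peaks of a gene, and some come from peaks without a B73 counterpart. At overlapping peaks, GRMZM2G002002 had its phase at ZT3 in BM (2.30) and at ZT15 in MB (1.36), and GRMZM2G082271 had it at ZT9 in BM (1.45), while its MB peaks overlapped none of B73. GRMZM2G049141 there had its phase at ZT3 in BM (2.37) as in B73 (1.72). In MB it was at ZT15 (1.86), against ZT9 in B73 (1.83). The B73 value of 2.44 at ZT15 came from a peak that no hybrid peak overlapped.

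Of the 690 genes, 489 matched a RefSeq entry by identifier, 468 of them a single entry, and 47 carried a name whose role is well known. None of 18 genes that the study names was among the 690. They were clock and carbon fixation genes, the ZmCCA1 genes themselves and the control CNR2. Several of the 18 had no peak in any list. Only GRMZM2G129513 was a target of B73 and not of Mo17, and it was in neither hybrid list, so the absence says little about the kept genes. The 47 genes were taken for their names and not for their values, and they were divided into 6 groups by role. No group was tested.

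Among 10 transcription factors, 6 were kept in BM only, 4 in MB only and 0 in both. In BM the phase was at ZT3 for 0 of the 6, beside 64.2% of all BM targets, at ZT9 for 4 (31.3%) and at ZT15 for 2 (4.51%), and in B73 6 of the 10 had it at ZT9, beside 40.3% of all B73 targets. DREB2A (GRMZM2G006745), an AP2 factor of heat and drought responses, had 1.32, 0.75 and 1.34 in BM over the 3 time points, against -0.14, 1.47 and 0.25 in B73. BM thus had its low at the time when B73 had its high. The ZT15 phase of DREB2A in BM, counted above, rests on nearly equal values at ZT3 and ZT15. WRKY1 (GRMZM2G398506) had 0.52, 1.74 and 0.72 in BM, against 2.18, 1.49 and 0.82 in B73. GLK15 (GRMZM2G162409), of the G2-like family, had its phase at ZT9 in BM (1.94) and in B73 (2.12). rld2 (GRMZM2G042250), a class III HD-ZIP factor of leaf polarity, had 0.59, 2.26 and -0.0027 in MB, against 1.48, 1.91 and 1.34 in B73, at peaks that did not overlap. MYBE1 (GRMZM2G145041) had 2.35, 0.72 and 1.33 in MB, against 2.39, 2.47 and 0.70 in B73, so the ZT3 levels were close and the ZT9 level lower in MB.

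The 10 genes of chromatin and the transcription machinery had 5 kept in both hybrids, 2 in BM only and 3 in MB only. ZT3 was the phase of 6 of 7 genes in BM and of 0 of 8 in MB, with 7 at ZT9, beside 64.2% of all BM targets at ZT3, and 51.0% of all MB targets at ZT3 and 37.0% at ZT9. ham101 (GRMZM2G044126), a MYST-type histone acetyltransferase, had 2.38, 1.94 and 0.43 in BM and 1.24, 2.12 and 1.84 in MB, against 0.98, 2.30 and 0.10 in B73. hda113 (GRMZM2G058573), a histone deacetylase, had 1.95, 1.52 and 0.76 in BM and 1.77, 2.22 and 0.57 in MB, against 1.82, 1.25 and 1.19 in B73. At both genes the hybrid peaks did not overlap the B73 peak. The values of hda113 join 2 peaks in each hybrid. In BM both lay inside the gene, one with 1.95, 1.52 and -0.94 and the other with 1.86, 1.08 and 0.76. In MB the peak inside the gene had 1.77, 0.84 and 0.57, with its phase at ZT3 as in BM. The 2.22 at ZT9 in MB came from a peak centred at -8856 bp from the gene start. mez1 (GRMZM2G157820), an Enhancer of zeste homolog that methylates histone H3, had 0.57, 1.66 and -0.06 in MB, against 0.91, 0.34 and 1.68 in B73, at peaks that did not overlap. RPB1 (GRMZM2G044306), the largest subunit of RNA polymerase II, differed by less than 0.5 at every time point, with 1.86, 1.97 and 1.42 in BM, against 1.42, 1.99 and 1.70 in B73. Med13 (GRMZM2G053588), of the Mediator kinase module, was also within 0.5, with 1.27, 1.84 and 1.32 in MB, against 1.48, 1.82 and 1.57 in B73. RELK2 (GRMZM2G030422), a TOPLESS-like corepressor, had 2.14, 0.70 and 0.76 in BM, against 1.0, 0.94 and 1.96 in B73.

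Of 8 genes of carbon, lipid and ion metabolism, all 7 in the BM list had their BM phase at ZT3, beside 64.2% of all BM targets. In B73 the 8 genes had 2 at ZT3, 3 at ZT9 and 3 at ZT15, beside 34.3%, 40.3% and 25.4% of all B73 targets. spp1 (GRMZM2G055489), the sucrose-phosphate phosphatase of the last step of sucrose synthesis, held 2 peaks in BM with 1.90, 1.85 and 1.69, against 0.23, 1.39 and 1.56 in B73, with the largest difference at ZT3. CM1 (GRMZM2G028369), a chorismate mutase, had 2.13, 1.55 and 0.57 in BM, against 1.06, 1.53 and 2.26 in B73. CYTMDH (GRMZM2G415359), a cytosolic malate dehydrogenase, had 2.00, 0.35 and 0.93 in BM, against 2.00, 2.49 and 1.95 in B73, with the same ZT3 level and lower values later. HAK18 (GRMZM2G086389), a potassium transporter, had 1.97, 0.40 and 0.90 in BM, against 2.25, 1.98 and 1.22 in B73. The vacuolar proton pump vpp3 (GRMZM2G421857) had its phase at ZT3 in BM (1.66) and at ZT9 in MB (2.22) and B73 (1.70), and its MB peak did not overlap that of B73.

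Among 5 genes of light, pigments and the plastid, 3 were kept in BM only, 1 in MB only and 1 in both. phot1 (GRMZM2G001457), a blue-light receptor kinase, had 1.92, 1.55 and 1.49 in BM and 0.67, 1.69 and 0.11 in MB, against 2.05, 1.63 and 0.94 in B73, so BM was close to B73 at ZT3 and ZT9. Its MB peak lay 15550 bp from the nearest B73 peak. HO1 (GRMZM2G101004), the heme oxygenase of the first step to the phytochrome chromophore, had 0.93, 1.37 and 2.01 in BM, against 0.29, 1.78 and 0.26 in B73. Together with CCD1 (GRMZM2G057243), a carotenoid cleavage dioxygenase, it was one of the 2 genes of the group with a BM phase at ZT15, which 4.51% of all BM targets had. CCD1 had 2.02 in BM at ZT15, against 1.5 in B73 at that time. prpo1 (GRMZM2G039396), a protoporphyrinogen oxidase of tetrapyrrole synthesis, had its phase at ZT9 in MB (2.11) and in B73 (2.17).

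The 9 genes of protein synthesis, turnover and traffic had 6 kept in BM only, 1 in MB only and 2 in both, with 5 of 8 at ZT3 in BM and 1 of 9 at ZT3 in B73, beside 64.2% and 34.3% of all targets. derlin4 (GRMZM2G112609), of ER-associated degradation, had 2.07, 1.36 and 0.16 in BM, against -0.41, 0.59 and 1.76 in B73, at peaks that did not overlap. atg9 (GRMZM2G035461), of autophagy, had 2.30, 1.72 and 1.26 in BM, against 1.33, 1.56 and 1.42 in B73. Cullin-4 (GRMZM2G704093), a ubiquitin ligase scaffold, had -0.12, 1.91 and 0.13 in BM, against 1.55, 1.92 and 2.55 in B73. The B73 values join 2 peaks, and the BM peak lay 5531 bp from the nearer one. In the 5 signalling genes, GF14-12 (GRMZM2G078641), a 14-3-3 protein, had 2.06, 2.34 and 1.0 in BM, against -0.11, 1.78 and 0.67 in B73. PP2C4 (GRMZM2G177386), a type 2C protein phosphatase, had 2.81, 2.27 and 1.46 in BM, against 2.12, 1.98 and 1.28 in B73, with the same order of time points. The NADPH oxidase gene rbohC (GRMZM2G043435) was the gene of this group kept in both, with its phase at ZT9 in BM (1.91), MB (1.84) and B73 (2.02).

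Membership rests on whether a peak was called and assigned. The kept genes with the weakest signal were GRMZM2G007659, with a highest value of 0.62 in a hybrid against 1.62 in B73, and GRMZM2G046620, with 1.17 in a hybrid against 0.71 in B73. Just outside lay genes with a weak Mo17 peak, such as GRMZM2G155706, with 0.64 in Mo17 and 0.79 in B73. A gene without a Mo17 peak may still be bound in Mo17 below the limit of calling, which was not tested.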

How the data were processed

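The deposited files hold the authors' log2 of ChIP over input for each peak at each time point, in 1 list per genotype, and the values were taken unchanged. Per the study's methods, reads of B73 were aligned to B73 AGPv2, those of Mo17 to a reference-guided Mo17 assembly and those of hybrids to both with the best alignment kept. Duplicates were removed, libraries were reduced to equal depth, and peaks were called against input with MACS2 2.0.1 (a version from the submitters' processing notes) at a p-value of 0.001 and kept where the 2 replicates overlapped. How replicates were combined into 1 value is not given in the sources used here. Peaks had been assigned to genes within 10 kb. A read that fits one assembly better can move signal between lists, and the depth behind a peak is unknown.

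For genes with several peaks the highest value was taken, and the phase was the time point of the highest value. No ties occurred. Hybrid and B73 were compared at overlapping peaks of the same gene, with 0.5 as the limit for a higher or lower gene. No test was run. The genes and lists were chosen with earlier results of these data known. Named genes were the 4 with the highest B73 value in each class, the 4 highest and 4 lowest mean differences at ZT3 and the 3 highest and 3 lowest changes in ZT3 minus the mean of the later time points among genes kept in both with overlapping peaks in all lists, and the 3 with the most peaks. The part of the rule on study genes found none, and its part on keyword lists could not be applied because the RefSeq table (assembly Zm-B73-REFERENCE-NAM-5.0, used for names only) holds no descriptions. In its place, groups were formed by role after the files were opened. Motifs were not analysed here. The software was Python 3.11.15 with scipy 1.17.1, numpy 2.4.6, pandas 2.3.3 and matplotlib 3.10.9, and the functions were tested on simulated lists.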

Additional observations from a re-analysis of the deposited data

Results flagged for a closer look

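At 5 of the genes picked by the naming rule or by a known role, both hybrids differed from B73 by 0.5 or more on the log2 scale in opposite directions. The difference between the hybrids was not tested, because each rests on 1 value per list. At ZT9, cesa5 (GRMZM2G111642) had -0.86 for BM minus B73 and 0.71 for MB minus B73, GRMZM2G011636 had -0.78 and 0.59, and DML3 (GRMZM5G828460) had -1.11 and 0.56. At ZT3 the myosin gene GRMZM2G113319, an actin-based motor, had 0.59 for BM and -1.11 for MB. At ZT15 GRMZM2G049141 had -0.64 for BM and 1.13 for MB. Of the 96 kept genes with a B73 peak overlapped in each hybrid, 3 showed such opposite values at ZT3, 6 at ZT9 and 3 at ZT15, beside 1.58%, 2.26% and 1.81% of all 443 genes with such peaks. The B73 peak that BM and MB overlapped was not always the same one, so these counts can join different places in a gene.

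The Mo17 list, which served only to leave genes out, held peaks that overlapped 15 of the kept genes' peaks, at 7 genes, and that were assigned to another gene or to none. GRMZM5G878073 was one of them: its BM peak (2.89, 2.59 and 2.20 at ZT3, ZT9 and ZT15) was overlapped by a Mo17 peak with no assigned gene (2.83, 3.04 and 3.04). Its B73 peak (1.35, 1.36 and 1.48) lay 4929 bp from the BM peak, so the BM site was one called in Mo17 and not in B73. With these 7 genes left out, the counts of genes, median differences, phase shares and B73 levels stayed within their intervals or within 1.5 times.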

How the results depend on the processing

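No paired analysis was possible because each list holds 1 value for both replicates, and for the same reason no replicate could be left out. Of 209 values over the kept genes under an alternative, 145 stayed within their interval or, for counts, within 1.5 times, 61 moved and 3 turned their sign. Single genes were followed only where they were named for a high or low difference between hybrids and B73. Of their values, 400 stayed on their side of 0.5, 20 crossed it and 0 turned. These genes were chosen for extreme differences, and the other named genes were not run under the alternatives. Centring on list medians turned BM minus B73 to -0.028 at ZT3 and 0.023 at ZT9, and moved it to -0.026 and that of MB to -0.10 at ZT15. The counts higher and lower were then 82 and 93 in BM at ZT3, 94 and 81 in BM at ZT15, and 51 and 77 in MB at ZT15 (an alternative chosen after the data were seen). Phase shares moved to 36.6% at ZT3 and 25.8% at ZT15 in BM, to 32.5% and 25.7% in MB, and to 35.8% at ZT9 and 32.6% at ZT15 in B73. Centring on means gave BM minus B73 of 0.048 at ZT3, 0.0057 at ZT9 (turned) and -0.068 at ZT15, and MB minus B73 of 0.092 at ZT9 and -0.14 at ZT15. Its phase shares were 42.6%, 39.4% and 18.0% at ZT3, ZT9 and ZT15 in BM, 35.2% at ZT3 and 20.4% at ZT15 in MB, and 38.6% at ZT9 and 29.9% at ZT15 in B73. Both centrings remove the list medians or means by construction.

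A minimum of 2 left 276 genes, 160 kept in BM only, 65 in MB only and 51 in both, with B73 levels of 2.22, 2.22 and 2.23, a BM minus B73 of -0.19 at ZT9, BM phase shares of 72.5%, 25.6% and 1.90% at ZT3, ZT9 and ZT15, and 6.03% at ZT15 in MB. A minimum of 1.5 gave 2.46% at ZT15 in BM. Overlap of peaks left 96 genes kept in both. A limit of 1 left, higher and lower, 54 and 19 in BM at ZT3, 17 and 31 at ZT9 and 7 and 84 at ZT15, and 20 and 30 in MB at ZT3, 15 and 15 at ZT9 and 8 and 61 at ZT15. A lead of 0.5 gave phase shares of 66.9% at ZT3 and 30.0% at ZT9 in BM and 8.21% at ZT15 in MB. Without ZT15, ZT3 took 47.9% in MB, against 43.0% in B73, where ZT9 took 57.0%. Means over peaks lowered the B73 level to 1.91 for BM only and 1.92 for both. A 1 kb promoter held 0.654% of BM and 1.23% of B73 peaks. A reciprocal overlap of 50%, all peaks of the gene, peaks that overlap their gene, and genes with a single peak in both lists moved no median difference beyond its interval. The alternatives to the motif search could not be run.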
